A study of Mus musculus with 14 samples.

Results

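Metallothioneins and zinc transporters of the mouse hippocampus are described here through 10 genes, which were chosen by name from the 24421 genes of the deposited count table. They were the metallothionein genes Mt1, Mt2 and Mt3, the zinc-sensing transcription factor gene Mtf1, the SLC30 transporter genes Slc30a1, Slc30a3, Slc30a4 and Slc30a10, and the SLC39 transporter genes Slc39a10 and Slc39a14. Between genotypes, Slc30a1, the zinc exporter of the plasma membrane, was the only member that passed the test, and it was 8.74% higher in mice labelled LPAR2-/-. This is 1 of 10 members, where 6.77% of all genes tested were called in either direction, and the call was lost in 11 of 14 fits with a single mouse left out, without the filter on low counts and in a replicate block fit. The 3 metallothionein genes were measured at close to equal levels in both genotypes.

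Metallothioneins are small proteins whose many cysteines bind zinc and copper. Mt1 and Mt2 are made by many cell types and are induced by metals, oxidants and glucocorticoids, whereas Mt3 is mostly a brain form. MTF-1, the product of Mtf1, binds zinc and then activates metallothionein genes and Slc30a1 through metal response elements in their promoters. SLC30 proteins (ZnT) move zinc out of the cytosol, either out of the cell or into vesicles, and SLC39 proteins (ZIP) move it into the cytosol. In the hippocampus, ZnT3, the product of Slc30a3, loads zinc into the synaptic vesicles of glutamatergic neurons, above all in mossy fibres.

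The coding sequences of the 3 metallothionein genes are shown because the cysteine codons are what these genes share. They were read from GENCODE M21 on mm10, all on the plus strand of chromosome 8 and each in 3 coding exons, at chr8:94179311-94180193 for Mt1, chr8:94172848-94173427 for Mt2 and chr8:94152800-94154010 for Mt3. Capitals mark the cysteine codons (TGC or TGT).
Mt1: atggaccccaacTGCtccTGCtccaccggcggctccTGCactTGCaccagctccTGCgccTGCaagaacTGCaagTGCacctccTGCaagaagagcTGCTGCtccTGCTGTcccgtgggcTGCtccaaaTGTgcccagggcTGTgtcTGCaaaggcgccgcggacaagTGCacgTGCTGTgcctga
Mt2: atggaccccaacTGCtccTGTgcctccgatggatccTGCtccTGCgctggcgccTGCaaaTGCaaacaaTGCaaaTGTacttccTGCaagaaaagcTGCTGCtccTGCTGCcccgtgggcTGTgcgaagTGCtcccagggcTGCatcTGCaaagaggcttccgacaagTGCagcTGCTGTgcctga
Mt3: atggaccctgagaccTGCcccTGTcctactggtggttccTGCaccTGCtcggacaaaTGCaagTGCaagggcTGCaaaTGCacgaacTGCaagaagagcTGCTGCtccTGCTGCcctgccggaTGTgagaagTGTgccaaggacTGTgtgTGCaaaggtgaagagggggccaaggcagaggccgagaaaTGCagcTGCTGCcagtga
Each sequence held 20 cysteine codons, of 61 codons before the stop in Mt1 and Mt2 and of 68 in Mt3, a share of 32.8% in Mt1 and Mt2 and of 29.4% in Mt3. Mt1 and Mt2 were identical at 148 of 186 aligned coding bases (79.6%). Mt3 was identical to Mt1 at 73.7% and to Mt2 at 75.3% of the aligned bases, and carried 21 further bases.

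Promoter windows were searched for the core of the metal response element, TGCACNC or TGCGCNC, on both strands. Those of Mt1, Mt2 and Slc30a1 are shown, since these are the classical MTF-1 targets among the members. The windows run from 250 bases before to 50 bases after the gene start, were taken from RefSeq (GRCm38.p6) and lie on the plus strand at chr8:94178839-94179138 (Mt1), chr8:94172368-94172667 (Mt2) and chr1:191906531-191906830 (Slc30a1). Capitals mark the matches, which on the minus strand read GNGTGCA or GNGCGCA.
Mt1: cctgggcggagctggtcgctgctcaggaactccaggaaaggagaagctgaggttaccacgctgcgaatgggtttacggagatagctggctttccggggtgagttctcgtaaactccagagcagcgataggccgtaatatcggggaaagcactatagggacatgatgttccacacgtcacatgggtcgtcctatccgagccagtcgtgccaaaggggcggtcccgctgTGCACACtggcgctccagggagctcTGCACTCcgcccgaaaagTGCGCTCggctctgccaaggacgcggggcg
Mt2: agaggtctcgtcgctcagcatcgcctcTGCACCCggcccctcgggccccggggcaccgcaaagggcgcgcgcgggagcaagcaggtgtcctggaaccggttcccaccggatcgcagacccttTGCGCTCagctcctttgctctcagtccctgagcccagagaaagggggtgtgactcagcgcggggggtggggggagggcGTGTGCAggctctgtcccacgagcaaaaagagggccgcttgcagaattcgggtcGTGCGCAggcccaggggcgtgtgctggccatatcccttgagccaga
Slc30a1: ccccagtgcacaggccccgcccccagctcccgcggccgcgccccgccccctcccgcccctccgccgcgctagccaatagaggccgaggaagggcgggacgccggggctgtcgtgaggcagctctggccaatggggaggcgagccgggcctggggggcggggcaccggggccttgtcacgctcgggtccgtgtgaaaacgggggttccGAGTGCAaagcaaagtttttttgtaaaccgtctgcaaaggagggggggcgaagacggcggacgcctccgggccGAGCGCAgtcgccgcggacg
The Mt1 window held 3 matches, all on the plus strand. The Mt2 window held 4 matches, 2 on each strand, and the Slc30a1 window held 2, both on the minus strand. Of all 32851 promoter windows of this length, 25.7% held at least 1 match, 7.11% at least 2, 1.97% at least 3 and 0.517% at least 4. Of the other members, Slc30a4 and Slc30a10 held 3 matches each, of which 2 in Slc30a10 overlapped, Mt3 held 1 and Mtf1 none. Slc30a3 had 2 windows, of which 1 held a match, both windows of Slc39a10 held none, and 9 of the 10 members had a window in the table. The 3 windows shown end before the coding starts (chr8:94179311 for Mt1, chr8:94172848 for Mt2 and chr1:191907007 for Slc30a1). Bases outside a window were not searched, so that each count is that of the window and not of the whole promoter. A match is a description of the letters and not a measured binding site.

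The data are RNA-seq libraries of the hippocampus, 1 per mouse, from 7 mice labelled LPAR2-/- and 7 labelled wild type (WT), none of them treated. All were labelled as males of the strain 129.C57Bl6 at 10 to 12 weeks, while the design text calls the mice middle-aged to aged, so that their age is uncertain. The labels and the methods of the paper name the hippocampus, whereas its results name the dentate gyrus. The mice labelled LPAR2-/- lack a part of exon 2 of Lpar2, the gene of a lysophosphatidic acid receptor, and were bred apart from the WT mice, whose background is mixed (C57BL/6, 129/SvJ). The deletion and differences between these breeding lines cannot be told apart.

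Reads on genes numbered from 15434620 to 23258949 in the 14 libraries. Values are CPM, which are counts scaled to a common library size after TMM normalisation, and genotypes were compared with edgeR's quasi-likelihood test, adjusted by Benjamini-Hochberg over the 14897 genes that passed the filter on low counts. Lpar2 itself, at chr8:69822565-69831102, was measured at 9.55 ± 1.41 CPM (SD, n = 7) in mice labelled LPAR2-/- and 2.36 ± 0.676 CPM in WT mice, with 144 to 234 against 27 to 66 counts. The targeted gene was thus higher in the libraries labelled LPAR2-/- (log2 fold change 2.01 ± 0.157 SE, adjusted p = 8.2e-07, edgeR). A count over the whole gene includes exons outside the deleted part, so that it does not check the labels, and each direction below is that of the label. The hippocampal markers were present. The summed CPM of 6 markers of dentate gyrus granule cells ranged from 755 to 1182 in mice labelled LPAR2-/- and from 794 to 1115 in WT mice. That of 8 neuronal markers ranged from 6668 to 8178 and from 6951 to 8366. Markers of other tissues varied between libraries. The sum of 8 choroid plexus markers was 290.2 in LPAR2-/- mouse 2, against at most 53.5 in the other mice labelled LPAR2-/- and 29.1 to 34.3 in WT mice, that of 8 meningeal fibroblast markers ranged from 95.4 to 422 against 74.7 to 315, and that of 6 striatal markers from 65.5 to 77.3 against 58.0 to 67.5. Of the tested genes of these lists, 1 of 8 meningeal, 0 of 4 choroid plexus and 0 of 5 striatal markers were called higher, beside 3.32% of all genes tested, and 6, 3 and 3 had an unadjusted p under 0.05, beside 22.4% of all genes tested (edgeR).

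The levels of the members per kb of exon, in which genes can be compared with each other, spanned 2 orders of magnitude. In WT mice, Mt3 was highest with 472 ± 26.5 CPM per kb (SD, n = 7), followed by Mt1 with 288 ± 24.4 and Mt2 with 156 ± 22.8 CPM per kb. Slc30a3 was the highest transporter gene with 89.2 ± 9.92 CPM per kb. Slc39a10 came next with 22.5 ± 1.49 CPM per kb, and Slc39a14 followed with 11.6 ± 0.580 CPM per kb. Slc30a1 had 9.45 ± 0.322 CPM per kb, Slc30a4 had 8.37 ± 0.345, Mtf1 had 6.88 ± 0.253 and Slc30a10, which is known as a manganese exporter, had 4.64 ± 0.372 CPM per kb. No pair of neighbours in this order overlapped among the 7 WT mice. In mice labelled LPAR2-/- the order of the means was the same, and only Slc39a14 (10.1 to 11.4 CPM per kb) and Slc30a1 (9.83 to 10.7 CPM per kb) overlapped.

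**Figure D1:**
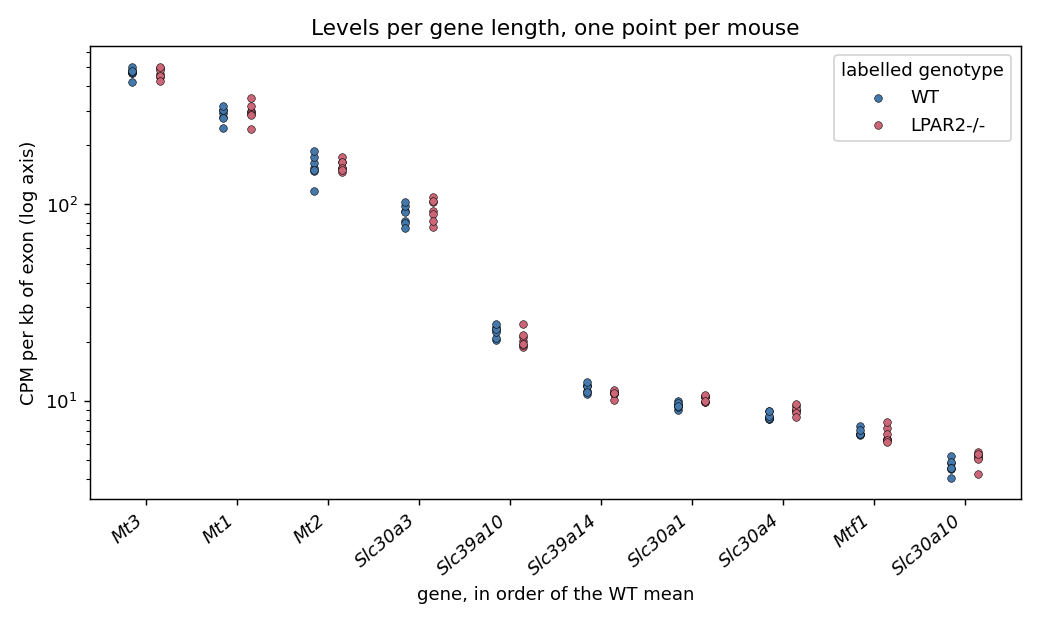
Levels of the 10 genes in CPM per kb of exon (log axis), 1 point per mouse, ordered by the WT mean, with WT in blue and mice labelled LPAR2-/- in red. The 3 metallothionein genes and Slc30a3 lie above the other 6 genes in every mouse, from Mt3 at 472 CPM per kb down to Slc30a10 at 4.64 CPM per kb in the WT mean.

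Of the 10 members, all passed the filter on low counts, 1 was called higher and none was called lower in mice labelled LPAR2-/- by edgeR. Of all genes tested, 3.32% were called higher and 3.46% lower, so that 1 call in 10 members is close to this background. An unadjusted p under 0.05 was seen for 4 of the 10 members (Slc30a1, Slc30a4, Slc30a10 and Slc39a14) and for 22.4% of all genes tested. DESeq2 likewise called 1 member higher and 0 lower. The median log2 fold change of the members was 0.04, beside 0.0029 over all genes tested, and their median size of change without regard to sign was 0.08, beside 0.09 over all genes tested. For none of the members did the values of the genotypes separate fully, which they did for 1.77% of all genes tested.

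Mt1 (chr8:94179089-94180327, 3 exons, 542 bases of exon) had between 2064 and 4402 counts in mice labelled LPAR2-/- and between 2661 and 3288 counts in WT mice. The lowest, median and highest CPM of Mt1 were 132.1, 160.5 and 189.6 in mice labelled LPAR2-/- and 132.5, 159.4 and 172 in WT mice. Both groups thus started at about the same level, and only the upper end was higher in mice labelled LPAR2-/-. The means were 161 ± 17.6 and 156 ± 13.2 CPM (SD, n = 7 each), with a log2 fold change of 0.05 ± 0.0692 SE (95% interval -0.10 to 0.19, adjusted p = 0.736, edgeR).

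Mt2 (chr8:94172618-94173567, 556 bases of exon) had a lowest, median and highest CPM of 81.7, 85.7 and 97.6 in mice labelled LPAR2-/- and of 64.8, 84.8 and 104.7 in WT mice. The WT mice enclosed the other genotype at both ends, with a coefficient of variation of 14.6% against 6.37%. The log2 fold change of Mt2 was 0.02 ± 0.0802 SE (95% interval -0.15 to 0.19, adjusted p = 0.897, edgeR). For Mt3 (chr8:94152607-94154148, 538 bases of exon), the lowest, median and highest CPM were 228.8, 247.4 and 269.7 in mice labelled LPAR2-/- and 225.2, 255.3 and 271.6 in WT mice. These ranges were almost the same, and the log2 fold change was -0.02 ± 0.0456 SE (95% interval -0.11 to 0.08, adjusted p = 0.868, edgeR). Upper quartile scaling, which moved the median of all genes by 0.02, gave 0.0031 for Mt3. The intervals of all 3 genes leave room for differences of up to 0.19 on the log2 scale for Mt1 and Mt2. The metallothionein genes lie 24.3 Mb from Lpar2 on chromosome 8. Within 5 Mb of them 6 of 52 tested genes were called, which is 11.5% beside 6.77% of all genes tested in either direction. Of these, 4 were called higher (7.69%) and 2 lower (3.85%), and none was a metallothionein gene.

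**Figure D2:**
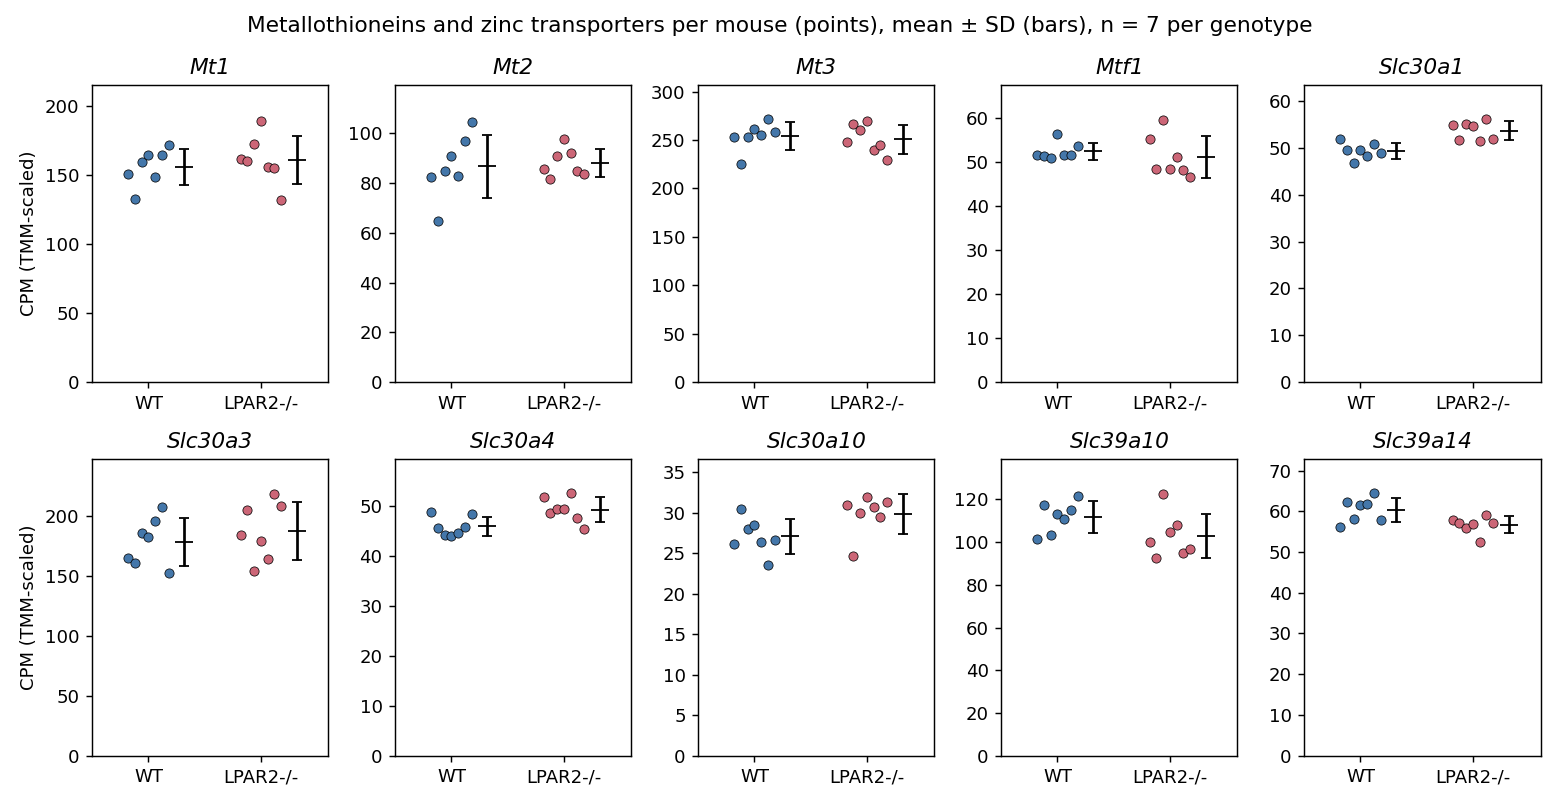
CPM after TMM scaling of each of the 10 genes in each mouse, with the mean and SD as bars and 7 mice per genotype (WT in blue, labelled LPAR2-/- in red). The genotypes overlap for every gene, and the points of Slc30a1 in mice labelled LPAR2-/- (51.4 to 56.2 CPM) reach above those of WT mice (46.7 to 51.9 CPM).

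Among individual mice, Mt1 varied together with Mt2 and with Mt3. WT mouse 2 had the lowest WT value for all 3 genes, with 132.5 CPM for Mt1, 64.8 for Mt2 and 225.2 for Mt3. LPAR2-/- mouse 4 had the highest value of its genotype for all 3, with 189.6, 97.6 and 269.7 CPM. After removal of the genotype means, log2 CPM of Mt1 and Mt2 correlated across the 14 mice with r = 0.77 (permutation within genotypes, 2-sided, p = 0.00013, adjusted p = 0.00075 over 10 pairs of members) and rho = 0.83 (permutation p = 0.00056, adjusted p = 0.0056). The relation of Mt1 and Mt2 was r = 0.70 in mice labelled LPAR2-/- and r = 0.97 in WT mice. It was r = 0.78 without LPAR2-/- mouse 7 and WT mouse 2, the mice farthest from the median of Mt1.

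Mt1 and Mt3 correlated with r = 0.87 (permutation p = 0.00015, adjusted p = 0.00075) and rho = 0.79 (permutation p = 0.0012, adjusted p = 0.006). The relation was r = 0.88 in mice labelled LPAR2-/- and 0.87 in WT mice, and r = 0.69 (permutation p = 0.0222) without the same 2 mice. Mt2 and Mt3 correlated with r = 0.67 (permutation p = 0.013, adjusted p = 0.0433) and rho = 0.56 (permutation p = 0.0352, adjusted p = 0.0941). The relation of Mt2 and Mt3 was r = 0.37 in mice labelled LPAR2-/- and 0.89 in WT mice. It was r = 0.50 (permutation p = 0.106) without WT mice 2 and 7, the mice farthest from the median of Mt2. Leaving them out also narrows the range and lowers the number of mice. All values of a mouse share a library and its scaling, and the part of this in the correlations was not tested.

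**Figure D3:**
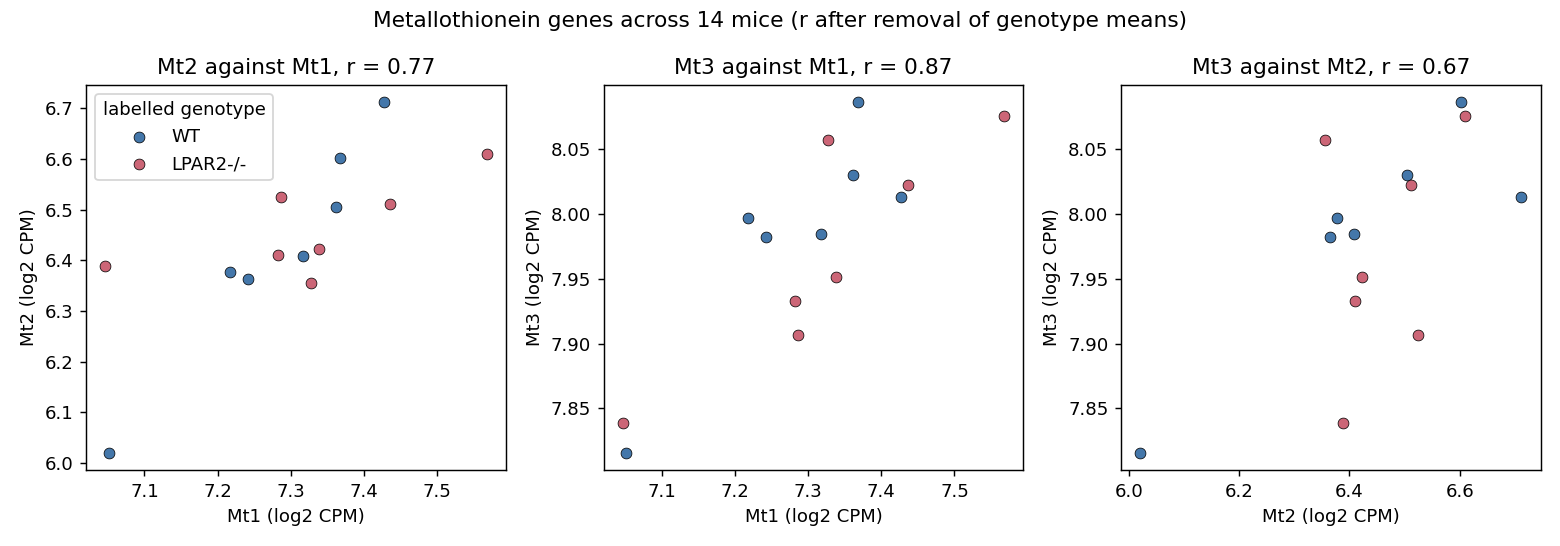
Log2 CPM of Mt1, Mt2 and Mt3 against each other, 1 point per mouse (WT in blue, labelled LPAR2-/- in red), with r after removal of the genotype means. WT mouse 2 lies at the lower end of all 3 panels, and r is 0.77 for Mt1 and Mt2, 0.87 for Mt1 and Mt3 and 0.67 for Mt2 and Mt3.

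The balance between the metallothionein genes, which needs no scaling between libraries, did not pass a test between genotypes. Per kb, Mt1 exceeded Mt2 by a factor of 1.87 in mice labelled LPAR2-/- (1.62 to 2.01) and of 1.86 in WT mice (1.68 to 2.10), and the log2 ratios were 0.90 ± 0.116 and 0.89 ± 0.102 (SD, n = 7 each, exact 2-sided permutation p = 0.865, adjusted p = 0.865 over 2 ratios). Mt3 was present at 1.02 times the sum of Mt1 and Mt2 in mice labelled LPAR2-/- and at 1.07 times in WT mice. The log2 ratios of Mt3 to this sum were 0.04 ± 0.0778 and 0.09 ± 0.0926 (SD, n = 7 each, exact 2-sided permutation p = 0.226, adjusted p = 0.452), where the smallest p that 7 against 7 mice allow is 0.000583. Without WT mouse 7 the difference of this ratio was -0.086 (exact permutation p = 0.053), against -0.06 with all mice.

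Mtf1 (chr4:124802549-124849800) had a lowest, median and highest CPM of 46.7, 48.5 and 59.7 in mice labelled LPAR2-/- and of 50.9, 51.7 and 56.4 in WT mice. The mice labelled LPAR2-/- thus reached both below and above the WT mice. The log2 fold change of Mtf1 was -0.03 ± 0.0519 SE (95% interval -0.14 to 0.07, adjusted p = 0.741, edgeR). Across the 14 mice Mtf1 showed r = 0.40 with Mt1, 0.24 with Mt2, 0.23 with Mt3 and 0.29 with Slc30a1, with adjusted permutation p values from 0.478 to 0.659.

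Slc30a1 (chr1:191906781-191913247, 2 exons) had 810 to 1274 counts in mice labelled LPAR2-/- and 820 to 1099 counts in WT mice. Its lowest, median and highest CPM were 51.4, 54.8 and 56.2 in mice labelled LPAR2-/- and 46.7, 49.5 and 51.9 in WT mice. All 7 mice labelled LPAR2-/- were above the WT median and 4 of 7 were above the highest WT mouse, while 6 of 7 WT mice were below the lowest mouse labelled LPAR2-/-. The groups met in WT mouse 1 (51.9 CPM), which overlapped with LPAR2-/- mice 2, 5 and 7 (51.8, 51.4 and 51.8 CPM). The means were 53.7 ± 1.97 and 49.4 ± 1.68 CPM (SD, n = 7 each), and Slc30a1 rose by 0.12 ± 0.0348 SE on the log2 scale (95% interval 0.05 to 0.19, or 3.34% to 14.4%, adjusted p = 0.0464, edgeR). This call lay close to the threshold. The log2 fold change stayed between 0.11 and 0.13 when single mice were left out, but the adjusted p ranged from 0.0265 to 0.0988, and the call was kept without LPAR2-/- mouse 5, without LPAR2-/- mouse 7 and without WT mouse 1 and lost without any of the other 11 mice. Without LPAR2-/- mouse 2, which had the highest choroid plexus marker sum, it was 0.13 (adjusted p = 0.0532, edgeR). The ranges of the striatal and meningeal marker sums given above also lay higher in mice labelled LPAR2-/-, and their part in the difference was not tested. In bulk tissue, more cells of a type and more RNA per cell cannot be told apart.

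The other SLC30 genes did not pass the adjusted threshold. Slc30a4 (chr2:122681233-122702663), whose product transports zinc into vesicles and into milk, had a lowest, median and highest CPM of 45.4, 49.3 and 52.6 in mice labelled LPAR2-/- and of 44.1, 45.5 and 48.7 in WT mice. Its mean was 49.2 ± 2.45 against 45.9 ± 1.89 CPM, with 4 of 7 mice labelled LPAR2-/- above every WT mouse (log2 fold change 0.10 ± 0.0396 SE, unadjusted p = 0.0188, adjusted p = 0.131, edgeR). Slc30a10 (chr1:185454848-185468761) had 24.6, 30.6 and 31.9 CPM as lowest, median and highest in mice labelled LPAR2-/-, and 23.5, 26.6 and 30.4 CPM in WT mice. Here, too, 4 of 7 mice labelled LPAR2-/- were above the highest WT mouse, but LPAR2-/- mouse 2 with 24.6 CPM lay below all but 1 WT mouse. The log2 fold change of Slc30a10 was 0.14 ± 0.0624 SE (95% interval 0.01 to 0.27, adjusted p = 0.200, edgeR).

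Slc30a3 (chr5:31086106-31093527), the gene of the vesicular zinc transporter ZnT3, varied most among the 6 transporter genes of the members, with coefficients of variation of 12.8% in mice labelled LPAR2-/- and 11.1% in WT mice. Its lowest, median and highest CPM were 153.9, 184.4 and 217.9 in mice labelled LPAR2-/- and 152.2, 182.4 and 207.1 in WT mice. The groups overlapped over nearly their whole range, with a log2 fold change of 0.07 ± 0.0839 SE (95% interval -0.11 to 0.25, adjusted p = 0.669, edgeR). The marker sum of the dentate gyrus granule cells, which send out the mossy fibres, was 755 CPM in LPAR2-/- mouse 3, the lowest of its genotype for Slc30a3 (153.9 CPM). It was 1163, 1182 and 1115 CPM in LPAR2-/- mice 6 and 7 and WT mouse 6, which had the highest Slc30a3 values (217.9, 208 and 207.1 CPM). WT mouse 7, the lowest of all mice for Slc30a3 (152.2 CPM), had a dentate sum of 821 CPM. In WT mouse 5 a dentate sum of 877 CPM stood beside a higher Slc30a3 value of 195.8 CPM. The sum of 4 markers of the CA3 pyramidal cells, which receive the mossy fibres, ranged from 89 CPM in LPAR2-/- mouse 7 to 190.2 CPM in LPAR2-/- mouse 3 and from 106 to 186 CPM in WT mice. The part of either cell type in the Slc30a3 values was not tested.

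Both SLC39 genes had lower means in mice labelled LPAR2-/-, without passing the adjusted threshold. Slc39a14 (chr14:70303467-70351424), whose product imports zinc, iron and manganese, had a lowest, median and highest CPM of 52.5, 57.1 and 59.1 in mice labelled LPAR2-/- and of 56.0, 61.6 and 64.5 in WT mice. None of the 7 mice labelled LPAR2-/- reached the WT median, but 3 WT mice lay within their range. The means were 56.6 ± 2.07 and 60.3 ± 3.02 CPM (log2 fold change -0.09 ± 0.0385 SE, unadjusted p = 0.0316, adjusted p = 0.174, edgeR). Slc39a10 (chr1:46807544-46853509), a zinc importer of the plasma membrane, had 92.8, 100.1 and 122.7 CPM as lowest, median and highest in mice labelled LPAR2-/- and 101.3, 113.3 and 121.7 CPM in WT mice. LPAR2-/- mouse 3 had the highest value of all 14 mice, above an otherwise lower group. That library also had the highest sum of oligodendrocyte markers, 3878 CPM against at most 2029 CPM in any other mouse, and the part of this in the Slc39a10 value was not tested. The log2 fold change was -0.12 ± 0.0595 SE (95% interval -0.25 to 0.01, adjusted p = 0.247, edgeR), and without LPAR2-/- mouse 3 it was -0.17 with an adjusted p of 0.0497.

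**Figure D4:**
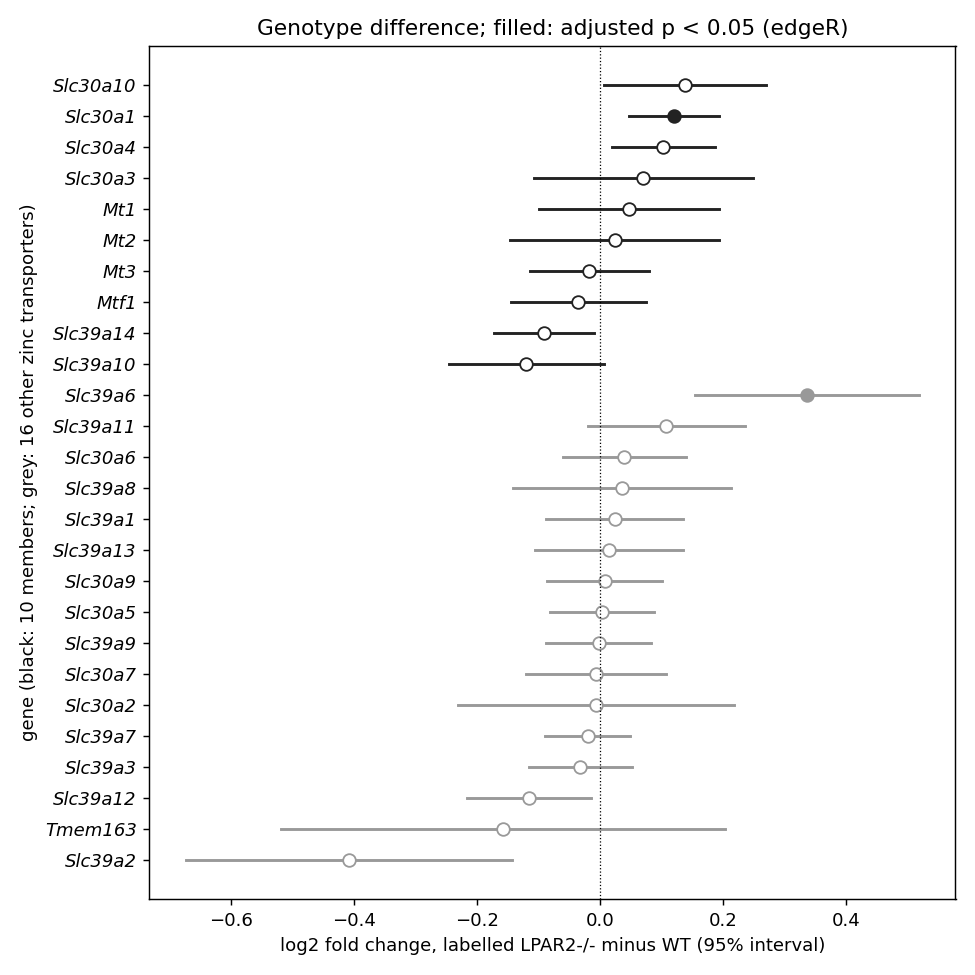
Log2 fold changes, mice labelled LPAR2-/- minus WT, with 95% intervals from edgeR, for the 10 members (black) and 16 tested other genes of zinc transport (grey), with filled points for an adjusted p under 0.05. Among the members, the 4 SLC30 genes lie between 0.07 and 0.14 and the 2 SLC39 genes at -0.09 and -0.12, and only Slc30a1 and, among the other genes, Slc39a6 are filled.

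The remaining genes of zinc transport, a list of 20 genes with Mt4, gave 1 call among 16 tested genes, with a median log2 fold change of 0.0008, beside the background of 6.77% of genes called. Slc39a6, whose product is a close relative and partner of the Slc39a10 product, rose from 158 ± 16.4 CPM in WT mice to 200.2 ± 27.8 CPM in mice labelled LPAR2-/- (log2 fold change 0.34 ± 0.0856 SE, adjusted p = 0.028, edgeR). Its lowest, median and highest CPM were 170, 214 and 233 in mice labelled LPAR2-/- and 144, 150 and 189 in WT mice, so that 4 of 7 mice lay above the WT range. This call was kept in 6 of the 14 fits with a single mouse left out (LPAR2-/- mouse 3, 4 or 5 or WT mouse 1, 6 or 7) and lost in the other 8, with log2 fold changes between 0.30 and 0.38. Slc39a2 had 20.9 ± 2.74 CPM against 27.7 ± 5.67 CPM in WT mice, with a log2 fold change of -0.41 ± 0.125 SE and an adjusted p of 0.0633 (edgeR). The next most abundant genes of the list were level between genotypes. Slc30a9 had means of 152 CPM in both groups, Slc39a3 had 99.1 CPM in mice labelled LPAR2-/- and 101 CPM in WT mice, and Slc39a7 had 96.5 and 97.8 CPM. Mt4, a metallothionein of stratified epithelia, had 0 to 1 counts per mouse and was not tested, like Slc30a8, Slc39a4 and Slc39a5.

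The AP-3 adaptor, which sorts ZnT3 to synaptic vesicles, and the zinc receptor gene Gpr39 gave 0 calls in 8 genes with edgeR, beside 6.77% of all genes tested. Of the 8, 1 had an unadjusted p under 0.05, beside 22.4% of all genes tested. DESeq2 called 1 of them, where it called 667 of all genes higher and 726 lower. Fitted values were below 0 for 7 of these 8 genes, beside 7284 of all 14897 genes tested, with a median of -0.05. On the log2 scale Ap3b2, the neuronal beta subunit, differed by -0.10 (adjusted p = 0.093, edgeR), Ap3d1 by -0.05 (adjusted p = 0.384, edgeR) and Gpr39 by -0.12 (adjusted p = 0.534, edgeR).

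Among 15 genes of copper, iron and manganese handling, 1 was called lower and 0 higher by edgeR, beside 3.46% of all genes called lower and 3.32% higher, and the median log2 fold change was 0.05. Atp7a, the copper transporter of the secretory pathway, fell from 9.48 ± 1.02 to 7.76 ± 0.503 CPM, by 0.29 ± 0.0763 SE on the log2 scale (adjusted p = 0.0316, edgeR). This call was lost in 7 of 14 fits with a single mouse left out (LPAR2-/- mouse 1, 2, 3 or 4 or WT mouse 2, 4 or 6, adjusted p up to 0.0769, edgeR) and in the replicate block fit (adjusted p = 0.0796, edgeR). The abundant genes of this list, Fth1, Atp2c1, Atp13a2 and Tfrc, did not pass the test. Among 9 genes induced by heavy metals and oxidants, which share inducers with Mt1 and Mt2, 1 was called lower and 0 higher, beside the same shares of all genes, with a median of -0.01. The list went both ways, with fitted values above 0 for 4 genes and below 0 for 5, from -0.30 to 0.36 on the log2 scale. Srxn1, which encodes sulfiredoxin, fell from 103 ± 8.92 CPM (93.1 to 119) to 84.8 ± 4.76 CPM (77.6 to 90.9) without overlap, by 0.28 ± 0.0533 SE on the log2 scale (adjusted p = 0.0059, edgeR), and its adjusted p was between 0.0062 and 0.016 in the 14 fits with a single mouse left out.

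Glucocorticoids and STAT3 are further known inducers of Mt1 and Mt2. Of 8 glucocorticoid-induced genes 0 were called by edgeR, beside 6.77% of all genes tested. DESeq2 also called 0 of them, where it called 667 of all genes higher and 726 lower. With edgeR, 2 had an unadjusted p under 0.05, beside 22.4% of all genes tested. Fitted values were below 0 for 7 of the 8, beside 7284 of all 14897 genes tested, with a median log2 fold change of -0.16, and Tsc22d3 had -0.30, Sgk1 -0.26, Zbtb16 -0.16 and Fkbp5 -0.11. Of 5 tested genes of the STAT3 response, 1 was called higher and 0 lower, beside 3.32% and 3.46% of all genes tested, with a median of -0.13. The fitted values were above 0 for 2 of the 5 and below 0 for 3, with -0.17 for Stat3 (unadjusted p = 0.0413, adjusted p = 0.202, edgeR). Cebpd, a transcription factor of the acute phase, rose from 12.6 ± 1.65 to 16.3 ± 2.21 CPM (log2 fold change 0.37 ± 0.0951 SE, adjusted p = 0.0268, edgeR). This call was lost in 4 of 14 fits with a single mouse left out (LPAR2-/- mouse 4 or WT mouse 2, 3 or 5, adjusted p up to 0.062, edgeR). Astrocytes express much of the Mt1, Mt2 and Mt3 RNA of the brain, and 0 of 10 astrocyte markers were called by edgeR, beside 6.77% of all genes tested. An unadjusted p under 0.05 was seen for 0 of them, beside 22.4% of all genes tested. Fitted values were below 0 for 8 of the 10, beside 7284 of all 14897 genes tested, with a median log2 fold change of -0.04. The summed CPM of the 10 markers ranged from 4954 to 5792 in mice labelled LPAR2-/- and from 5129 to 5878 in WT mice.

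The genes whose variation among mice was most like that of a member were looked up for the 3 members with the smallest p, by r of log2 CPM after removal of the genotype means over 14 mice. For Slc30a1 these were Has3 (0.86), Inpp5d (0.85), Lppos (0.82), Rhbdd3 (0.82) and A330009N23Rik (0.76). For Slc30a4 they were Hgsnat (0.89), 6430531B16Rik (0.88), Letm1 (0.88), Ilvbl (0.88) and 6330416G13Rik (0.87). For Slc39a14 they were Noxred1 (0.92), Zfp939 (0.88), Pde7b (0.88), Ankrd45 (0.88) and Adck5 (0.87), of which Noxred1 fell by 0.74 on the log2 scale (adjusted p = 0.0142, edgeR). These values are the highest of 14897 genes over few mice and serve as a description.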

How the data were processed

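RNA-seq libraries of 14 hippocampi had been made from RNA depleted of ribosomal RNA. The deposited counts per gene were made by the authors with featureCounts 1.6.3 for the reverse strand of exons on mm10, after trimming with cutadapt 1.18 and alignment with STAR, and gene length is the other deposited column used, per the file headers. Reads matching several places were not counted, so that near-identical copies may be undercounted. A deposited table of normalized values (DESeq2 1.22.2, per the labels) was not used here. Genotypes came from the labels.

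Counts were analysed in R 4.3.3 with edgeR 4.0.16 (filterByExpr, TMM, robust quasi-likelihood F test, no covariates, threshold 0.05), limma 3.58.1 and DESeq2 1.42.0 as an alternative. CPM used TMM scaling, and log2 CPM a prior count of 2. A count of 0 allows up to 3 counts, which covers counting error only. No pair of libraries of a genotype agreed within sampling noise. Ratios were tested with exact permutation tests and correlations with 100000 permutations within genotypes. The fit was tested on simulated data.

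The members and lists were chosen with earlier results of these data known. Named genes are the members, Lpar2, called genes of the lists with up to 4 of the most abundant per list, and the 5 genes most like each of 3 members. Exceptions, chosen after their values were seen, are Slc39a2, Gpr39, Alas2 and the untested Mt4, Slc30a8, Slc39a4 and Slc39a5. Marker lists covered astrocytes, neurons, dentate gyrus, CA3, CA1, microglia, oligodendrocytes, endothelium, meninges, choroid plexus, striatum and red blood cells.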

Additional observations from a re-analysis of the deposited data

Results flagged for a closer look

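Among the 20 groups of 7 mice formed by the 10 genes and 2 genotypes, 2 held a value far from the others, and chance flags about 1 in 20 groups. WT mouse 2 had 225.2 CPM of Mt3, while the next WT mouse had 252.7 CPM, a gap of 0.593 of the whole WT range against a critical share of 0.568. That library also had the highest sum of CA1 markers, 331 CPM against 97.9 to 135 CPM in the other WT mice, and the part of this in the Mt3 value was not tested. LPAR2-/- mouse 2 had 24.6 CPM of Slc30a10, while the next mouse of its genotype had 29.4 CPM, a gap of 0.661 of the range. That library also had the highest sum of choroid plexus markers (290.2 CPM), and the part of this in the Slc30a10 value was not tested.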

How the results depend on the processing

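Of the refitted log2 fold changes of the members, Lpar2 and the called genes named in the text, 319 kept their direction and side of the threshold, 36, of Slc30a1, Slc39a6, Atp7a, Cebpd, Tdo2 and Lum, lost the threshold, 1, of Slc39a10, passed it newly and 4, of Mt2 and Mt3, turned sign. Slc30a1 had 0.12 without the filter on low counts (adjusted p = 0.0706, edgeR) and 0.12 in a replicate block fit on the numbers of the mice (adjusted p = 0.0992, edgeR), so that 0 members were called higher in either fit, and over all its alternatives the adjusted p ranged from 0.0196 to 0.0992. The mouse numbers do not pair the samples, since same-numbered mice correlated at -0.33 to 0.31 and in 3 of 7 pairs above 0.1. With the block, 314 genes were called higher and 272 lower, against 494 and 515, and the list of other zinc transporters gave 2 calls, as it did with DESeq2, against 1. Upper quartile scaling gave 616 genes called higher and 377 lower, moved the median of all genes by 0.02 and gave 0.0031 for Mt3, a shift of about the same size.

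With single mice left out, 0 to 1 members were called higher and 0 to 1 lower, 275 (without WT mouse 2) to 660 (without WT mouse 1) of all genes higher and 292 to 725 lower (same mice), 1 to 7 genes of the 6 pathway lists, marker lists not included (same mice, 4 in the full fit), and 0 to 3 of the other zinc transporters. Log2 fold changes then ranged from -0.036 to 0.074 for Mt2, from -0.044 to 0.0036 for Mt3, from 0.11 to 0.13 for Slc30a1, from -0.17 to -0.10 for Slc39a10, from 0.0062 to 0.09 for Mt1, from -0.076 to -0.015 for Mtf1 and from 0.031 to 0.11 for Slc30a3. The difference in the log2 ratio of Mt1 to Mt2 ranged from -0.014 to 0.045, and that of Mt3 to their sum from -0.086 (without WT mouse 7, exact permutation p = 0.053) to -0.038. The r of Mt2 and Mt3 was 0.50 without WT mice 2 and 7, that of Mtf1 and Mt3 was -0.073 without LPAR2-/- mice 3 and 7, and that of Slc30a10 and Slc39a14 was 0.35 without LPAR2-/- mouse 2 and WT mouse 6. As rho, Mtf1 and Mt2 gave 0.53 (permutation p = 0.0376, adjusted p = 0.0941) and Slc30a10 and Slc39a14 gave 0.015. The cause was not tested.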

Other observations

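Slc30a1 and Slc39a14, an exporter and an importer, were looked at together after their values were seen, and no test was made. Per kb, the ratio of Slc39a14 to Slc30a1 was 1.06 ± 0.0354 (SD, n = 7, 1.02 to 1.11) in mice labelled LPAR2-/- and 1.23 ± 0.0708 (SD, n = 7, 1.08 to 1.28) in WT mice. WT mouse 1 with 1.08 lay within the range of the mice labelled LPAR2-/-, and the other 6 WT mice lay above it. Such a ratio needs no scaling between libraries. The manganese transporters Slc30a10 and Slc39a14 gave r = -0.14 over 14 mice after removal of the genotype means (permutation p = 0.652, adjusted p = 0.724 over 10 pairs). Slc30a1 and Mt2, which share MTF-1 as a known activator, showed r = 0.08 (permutation p = 0.802, adjusted p = 0.802), and Slc39a14 and Mt2 showed r = -0.19 (permutation p = 0.614, adjusted p = 0.724).

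The remaining marker lists gave the following summed levels. Microglial markers ranged from 339 to 412 CPM in mice labelled LPAR2-/- and from 338 to 427 CPM in WT mice, endothelial markers from 194 to 284 and from 180 to 278 CPM, and oligodendrocyte markers from 969 to 3878 and from 1201 to 2029 CPM. CA1 markers ranged from 83.8 to 169 CPM against 97.9 to 331 CPM in WT mice. Of 5 red blood cell markers, the 4 globin genes were listed at 0 in every mouse, and Alas2 alone ranged from 1.02 to 3.14 CPM against 1.05 to 2.10 CPM. Of these lists, no gene was called by edgeR, beside 6.77% of all genes tested. They held 7 tested microglial, 7 endothelial, 6 oligodendrocyte, 4 CA1 and 1 red blood cell genes. Of the lists given further above, Tdo2 of the dentate gyrus list rose by 0.45 and Lum of the meningeal list by 0.54 on the log2 scale in mice labelled LPAR2-/- (adjusted p = 0.0244 and 0.0132, edgeR). The call of Tdo2 was lost without WT mouse 4 or WT mouse 5 (adjusted p up to 0.0535, edgeR), and that of Lum in the replicate block fit (adjusted p = 0.0534, edgeR).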
